A study of Homo sapiens with 6 samples.

Results

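Heterotrimeric G proteins and the cAMP pathway were examined in SH-SY5Y cells under METH treatment through 50 genes of a deposited transcriptome table of 4101 genes. The genes were taken by name: adenylyl cyclases, phosphodiesterases, A-kinase anchoring proteins, RGS proteins, G protein alpha, beta and gamma subunits, CREB family factors, neuropeptide Y, and receptors with the names ADGR, ADRA, ADRB, CHRM, DRD, GPR, HTR, OPR and SSTR. The pattern matched 51 names, and the antisense gene GNAS-AS1 was left out. No catalytic or regulatory subunit of protein kinase A, no adrenergic receptor and no dopamine receptor was among the 4101 genes, so these were not analysed here.

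The SH-SY5Y line was derived from a human neuroblastoma, with features of sympathetic neurons, of wild type genotype per the labels, and is used as a dopaminergic cell model. One group of 3 RNA sequencing libraries came from cells given 2 mM METH (methamphetamine), a psychostimulant that releases monoamines, and the other 3 came from cells given PBS, both for 24 h. The libraries of the METH-treatment group are METH 1, 2 and 3, and those of the PBS-treatment group are PBS 10, 11 and 12 after their columns. The sources speak of experiments in triplicate and of 3 samples per group without saying whether these were separate cultures, so p-values measure only the spread between these libraries. A lower level from bulk RNA can come from fewer cells or from less RNA per cell, and these cannot be told apart.

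A heterotrimeric G protein consists of an alpha subunit, which binds GTP, and a paired beta and gamma subunit. An activated receptor loads GTP onto the alpha subunit, and RGS proteins speed up GTP hydrolysis and so end the signal. Adenylyl cyclases, stimulated by the Gs alpha subunit and restrained by Gi, make cAMP, and phosphodiesterases break it down. In between, cAMP activates protein kinase A, which A-kinase anchoring proteins hold at particular places in the cell and which phosphorylates CREB. In dopaminergic and sympathetic neurons this pathway carries the signals of monoamine and peptide receptors.

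Expression was given in CPM (reads per 1 M reads of the library, with no correction for gene length). The library totals behind these values were 85.7 to 111 M reads, with the largest in PBS 10 and METH 3. Genes of the table took 192856 CPM in METH 3 and 229751 to 243343 CPM in the other 5 libraries. Of 17 SH-SY5Y markers, 7 were in the table, among them GATA2 and DDC with at least 11485 reads in each library, and their summed level was 955 to 1045 CPM in PBS libraries and 880 to 979 CPM in METH libraries. Of 12 markers of Schwann or mesenchymal-like neuroblastoma cells, VIM, FOSL1 and FOSL2 were in the table, all 3 up-regulated, and their summed level was 267 to 482 CPM in PBS libraries and 551 to 836 CPM in METH libraries. None of the 10 immune, epithelial and endothelial markers was in the table. The table holds only genes marked as different between METH and PBS, so absence from it does not show absence from the cells. The 15 mitochondrially encoded genes of the table took 6.16% to 11.3% of reads in PBS libraries and 4.16% to 5.44% in METH libraries. Of these 15 genes, 11 were down-regulated and none was up-regulated. Mitochondrially encoded genes outside the table are not part of these shares. The part of these differences in the results on the 50 genes was not tested.

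Each of the 4101 genes had an unadjusted p-value under 0.1 in the authors' own comparison of the same libraries. The paper itself words its cutoff as an adjusted p-value under 0.1. The 50 genes were thus already selected for a difference between METH and PBS. Within the table, METH was compared with PBS by limma on log2(CPM + 0.1). P-values were adjusted by the Benjamini-Hochberg method over the 4101 genes, with 0.1 as the threshold. Genes past this threshold are called up-regulated or down-regulated below. A stricter adjustment used 15724 tests, the number that the authors' own adjustment implies, and treats the genes outside the table as having larger p-values.

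Among these genes more were higher than lower in METH-treated cells, and those that were lower were mostly receptors. Of the 50 genes, 28 (56%) were up-regulated, 10 (20%) were down-regulated and 12 were not past the threshold, while 33.3% of all genes tested were up-regulated and 35.8% down-regulated. The median log2 fold change was 0.67 for the 50 genes and 0.11 for the table, and 36 of the 50 had a positive value. In 22 genes each METH library was above each PBS library and in 8 each METH library was below each PBS library, against 31.0% and 33.0% of the table. Since 3 libraries against 3 give an exact permutation p of at least 0.1 for a single gene, the 30 genes without overlap all had that smallest value.

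Over 15724 tests, RGS2, RGS7, RGS3, AKAP5, CREB5, GPR37 and PDE3A remained up-regulated and SSTR3 remained down-regulated, against 7.71% of the table up-regulated and 7.49% down-regulated. The split by kind of gene was made after the values were seen. The 18 receptors, with all GPR-named proteins counted among them, were divided, with 8 (44.4%) up-regulated and 8 (44.4%) down-regulated. The table as a whole was divided too, with 33.3% up-regulated and 35.8% down-regulated. The other 32 genes held 20 up-regulated members (62.5%) and 2 down-regulated members (6.25%), PDE4C and CREB3L4. When each library was left out in turn, 10 genes (20%, against 19.5% of the table) stayed past the threshold in all 6 fits: RGS2, RGS7, RGS3, AKAP5, AKAP13, CREB5, GPR37, PDE3A, SSTR3 and HTR1E. Of the 38 genes called with all libraries, 26 were no longer past it without METH 2, 23 without METH 1 and 18 without PBS 12. The counts in these fits were 9, 10 and 15 up-regulated and 4, 5 and 5 down-regulated genes, against 10%, 12% and 18.2% of the table up-regulated and 13.7%, 15.3% and 20.8% down-regulated.

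**Figure D1:**
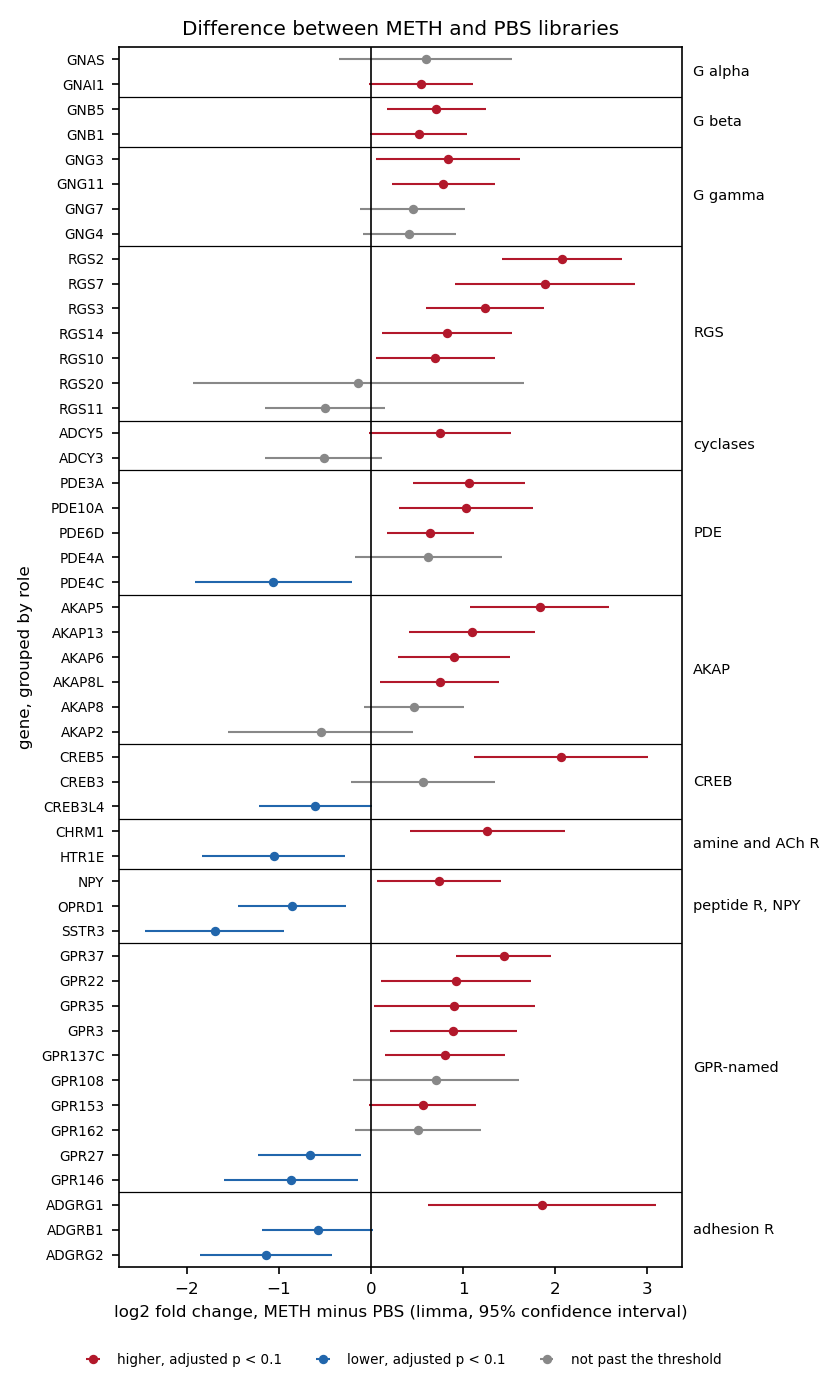
Log2 fold change of METH against PBS (x axis, limma on log2(CPM + 0.1), bars are 95% confidence intervals) for 49 of the 50 genes (y axis, grouped by role, R for receptor and ACh for acetylcholine), with 3 libraries per group. The 28 up-regulated genes in red lie in every role group, while 7 of the 9 down-regulated genes in blue are receptors.

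**Figure D2:**
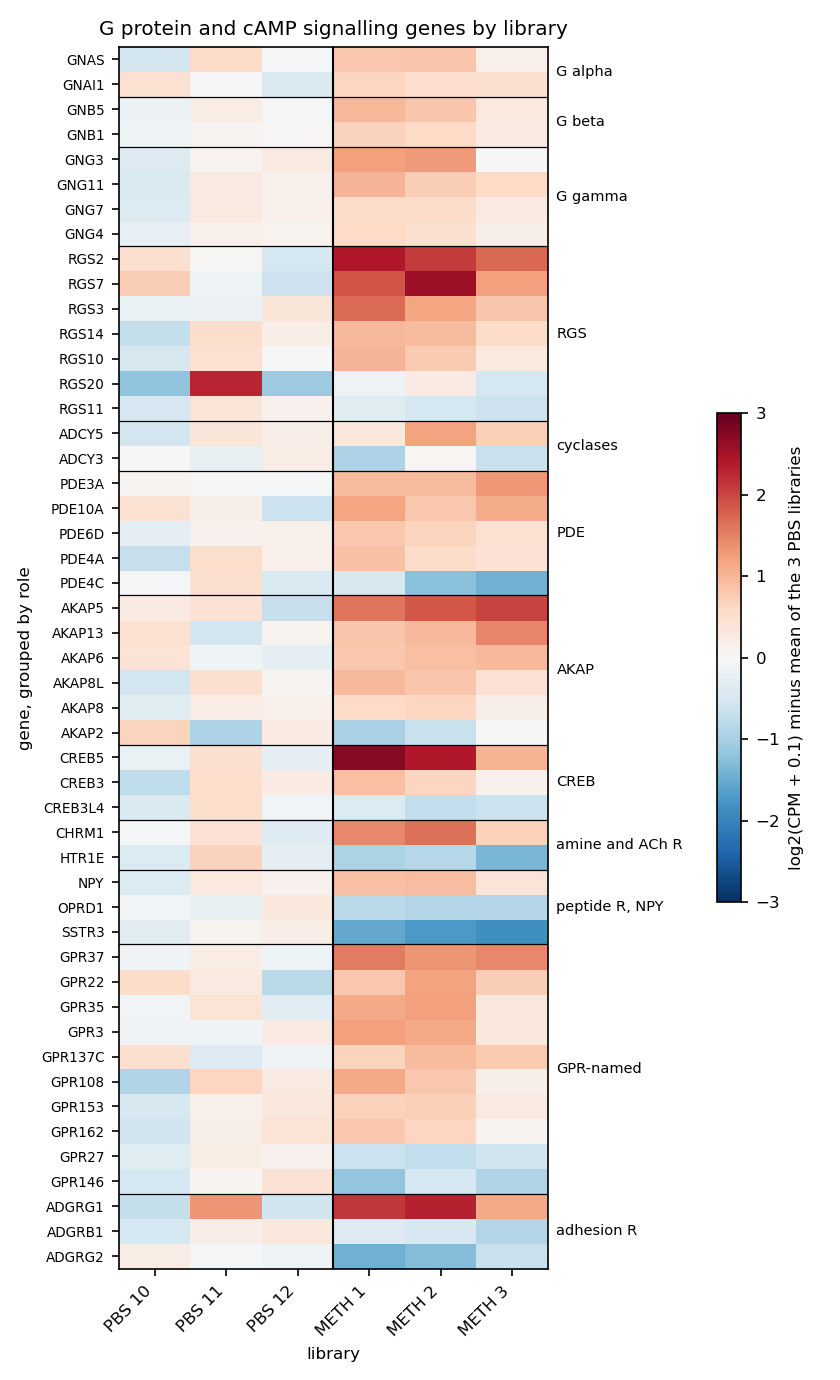
Level of 49 of the 50 genes (rows, grouped by role, with R for receptor) in each of the 6 libraries (columns) as log2(CPM + 0.1) minus the mean of the 3 PBS libraries, from blue (lower) to red (higher). METH 3 is paler than METH 1 and METH 2 in many rows, and the RGS20 row is darkest in PBS 11.

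Of the 7 RGS proteins, 5 (71.4%) were up-regulated and none was down-regulated, against 33.3% and 35.8% of the table. RGS2 (ENSG00000116741, chr1:192809039-192812283, plus strand, GRCh38), which acts mainly on Gq and is an immediate response gene of cAMP and calcium signals in many cells, had 38.3, 28.2 and 19.1 CPM in PBS 10, 11 and 12 and 145, 119 and 90.9 CPM in METH 1, 2 and 3. Each METH library was thus above each PBS library. The ratio of the means was 4.14, the log2 fold change was 2.08 ± 0.29 (SE, n = 3 libraries per group), and the limma adjusted p was 0.0046, or 0.018 over 15724 tests. With at least 1783 reads in each library, counting error was small against the spread between libraries.

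RGS7, a neuronal member that acts on Gi and Go and works in a complex with the beta subunit GNB5, had 2.94, 1.56 and 1.08 CPM in PBS libraries and 6.58, 10.6 and 4.13 CPM in METH libraries. The groups did not overlap, and METH 2 was the highest. Its log2 fold change was 1.89 ± 0.43 (SE, limma adjusted p = 0.019). GNB5 itself had 15.1, 20.01 and 16.5 CPM in PBS libraries and 34.1, 30.5 and 21.1 CPM in METH libraries. It was up-regulated by 0.71 ± 0.24 on the log2 scale (SE, limma adjusted p = 0.046), with METH 3 only slightly above PBS 11, and was no longer past the threshold without PBS 12, METH 1 or METH 2 (adjusted p up to 0.15). RGS11, from the same RGS subfamily that pairs with GNB5, had 3.44, 6.43 and 5.39 CPM in PBS libraries and 3.83, 3.41 and 3.14 CPM in METH libraries, with a log2 fold change of -0.50 that did not pass the threshold (limma adjusted p = 0.14).

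RGS3, which acts on Gi and Gq, had 6.07, 6.09 and 9.01 CPM in PBS libraries and 22.8, 15.8 and 12.5 CPM in METH libraries. The groups did not overlap and the log2 fold change was 1.24 ± 0.28 (SE, limma adjusted p = 0.019). RGS14, a scaffold that also binds inactive Gi, and RGS10, a small RGS protein for Gi, were up-regulated by 0.83 (limma adjusted p = 0.061) and 0.70 (limma adjusted p = 0.073) on the log2 scale. Without PBS 10, PBS 12, METH 1 or METH 2 neither was past the threshold, with adjusted p up to 0.16 for RGS14 and 0.20 for RGS10.

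RGS20, which acts on Gz, was decided by 1 library. Its level was 3.23 CPM in PBS 10, 37.5 CPM in PBS 11 and 3.49 CPM in PBS 12, and 6.79, 9.06 and 5.24 CPM in METH 1, 2 and 3. PBS 11 was the highest of the 6 libraries, and the other PBS libraries were below each METH library. The log2 fold change was -0.14 ± 0.80 (SE, limma adjusted p = 0.87) with all libraries and 1.01 ± 0.30 (SE, limma adjusted p = 0.034) without PBS 11.

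**Figure D3:**
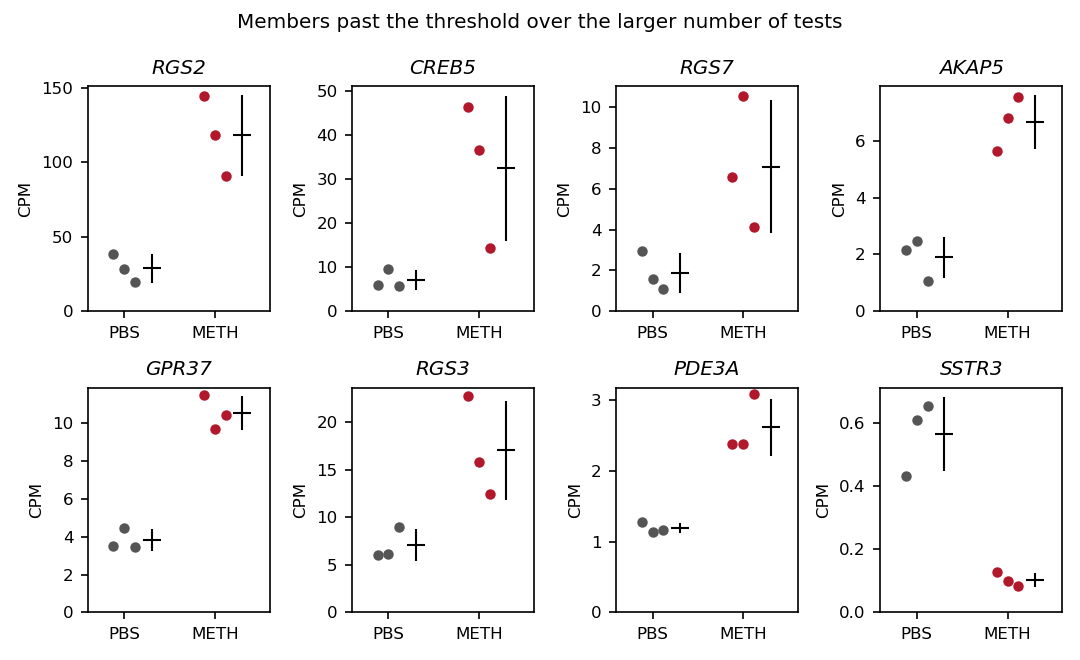
CPM (y axis, from 0) in each PBS library (grey, PBS 10, 11 and 12 from left to right) and METH library (red, METH 1, 2 and 3) for the 8 genes past the threshold over 15724 tests, with the mean and SD of 3 libraries beside the points in black. The METH points lie above the PBS points for 7 genes and below them for SSTR3.

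The G protein subunits differed less and all in 1 direction. All 8 subunits of the table had positive log2 fold changes, from 0.42 to 0.84, against 2066 of all 4101 genes. Of the 8, 5 (62.5%) were up-regulated, against 33.3% of the table, and none over 15724 tests. GNAI1, a Gi alpha subunit that inhibits adenylyl cyclase, had 21.1, 15.3 and 11.4 CPM in PBS libraries and 24.0, 21.9 and 21.6 CPM in METH libraries. The groups were separated by a narrow gap between PBS 10 and METH 3. This gave a log2 fold change of 0.54 ± 0.25 (SE, limma adjusted p = 0.091), and the call was lost in 5 of the 6 fits that left out 1 library (adjusted p up to 0.24). With all 6 libraries, GNAI1 was not past the threshold by edgeR (adjusted p = 0.105), by DESeq2 (adjusted p = 0.13), by limma without a trend (adjusted p = 0.11) or with the libraries scaled to one median ratio (adjusted p = 0.102).

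GNAS, which encodes the Gs alpha subunit that stimulates adenylyl cyclase, was the most abundant of the 50 genes in CPM. It had 2031, 4447 and 2900 CPM in PBS libraries and 5172, 5288 and 3282 CPM in METH libraries. METH 3 was below PBS 11, so the groups overlapped. Its difference of 0.59 ± 0.42 on the log2 scale (SE) did not pass the threshold (limma adjusted p = 0.20). Per kilobase of annotated exon the mean PBS level of GNAS was 235 CPM, against 57.8 CPM per kilobase for GNB1 and 0.66 CPM per kilobase for GNAI1. The length joins all annotated exons of a gene, 13320 bases for GNAS, 6417 for GNB1 and 24206 for GNAI1. Which transcripts the cells made was not tested, so these are not levels per transcript. With neuropeptide Y at 779 CPM per kilobase, GNAS was second by this measure.

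The beta subunit GNB1, which is the common partner in most cells, had 341, 391 and 381 CPM in PBS libraries and 599, 561 and 441 CPM in METH libraries. The groups did not overlap, and the log2 fold change was 0.52 ± 0.23 (SE, limma adjusted p = 0.086). Among the gamma subunits, GNG11 had 101, 166 and 152 CPM in PBS libraries and 276, 229 and 208 CPM in METH libraries, with a log2 fold change of 0.78 ± 0.25 (SE, limma adjusted p = 0.040). Every METH library was above every PBS library for both genes. GNG3, a gamma subunit of neurons, had 31.0, 43.5 and 49.0 CPM in PBS libraries and 94.8, 97.6 and 40.8 CPM in METH libraries. METH 3 fell among the PBS libraries, while the log2 fold change was 0.84 ± 0.35 (SE, limma adjusted p = 0.074). GNG3 shares 50.7% of its exonic bases with BSCL2 on the opposite strand, whose log2 fold change was 0.57 (limma adjusted p = 0.15), and the counting is not stated to use strand, so reads of the 2 genes may be mixed.

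GNG4 and GNG7, with log2 fold changes of 0.42 and 0.45, did not pass the threshold (limma adjusted p = 0.12 and 0.13), although the groups did not overlap for GNG4. The calls of GNB1, GNG11 and GNG3 were lost without METH 1 or METH 2, and those of GNB1 and GNG3 also without PBS 10 or PBS 12, with adjusted p up to 0.24 for GNB1, 0.13 for GNG11 and 0.21 for GNG3.

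**Figure D4:**
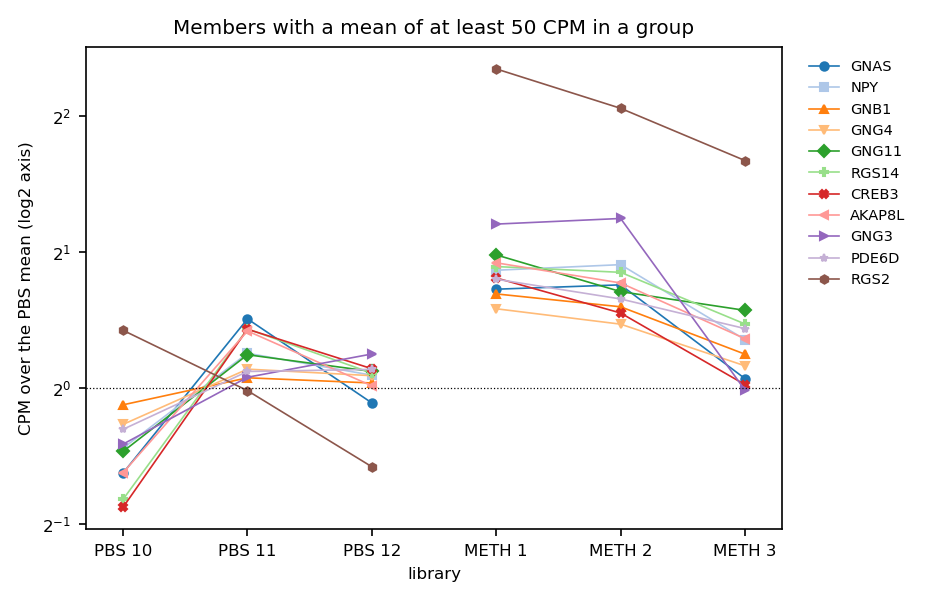
Level of the 11 genes whose mean reaches 50 CPM in either group, as CPM divided by the mean of the 3 PBS libraries (y axis, log2 scale) in each library (x axis), with lines only joining the points of a gene within a group. PBS 10 is the lowest PBS library for 10 of the 11 genes, all but RGS2, and METH 3 is the lowest METH library for all 11.

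The abundant genes moved together between libraries. For the 11 genes whose mean reached 50 CPM in either group (GNAS, NPY, GNB1, GNG4, GNG11, RGS14, CREB3, AKAP8L, GNG3, PDE6D and RGS2), METH 3 was always the lowest METH library and PBS 10 was the lowest PBS library for all but RGS2. Over all 50 genes PBS 10 and METH 3 were both the lowest of their group in 25 genes (50%), against 35.6% of the table. Among genes with a positive log2 fold change this held for 20 of 36 members (55.6%) and 48.8% of the table. Among the 12 genes not past the threshold this held for 10. The share for genes of the table not past the threshold was not computed. Passing the threshold itself depends on the spread within groups, so this count is no separate result about these genes. PBS 10 and METH 3 are also the libraries with the largest totals, and the part of the totals in these levels was not tested. Without these 2 libraries, a fit added once the data had been seen, 31 genes passed the threshold upwards and 10 downwards, against 34.9% and 32.3% of the table. AKAP8, GNG4, GPR108, GPR162 and RGS11 were then past the threshold, and ADCY5 and PDE4C no longer were.

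Among the amine and acetylcholine receptors, 1 gene rose and 1 fell. CHRM1, the M1 muscarinic receptor that couples to Gq, had 0.58, 0.85 and 0.44 CPM in PBS libraries and 1.81, 2.12 and 1.04 CPM in METH libraries. Each METH library was above each PBS library, with a log2 fold change of 1.26 ± 0.37 (SE, limma adjusted p = 0.034). HTR1E, a serotonin receptor that couples to Gi, had 3.26, 7.01 and 3.54 CPM in PBS libraries and 2.19, 2.35 and 1.63 CPM in METH libraries. Its groups did not overlap in the other direction, with a log2 fold change of -1.06 ± 0.34 (SE, limma adjusted p = 0.042). Without METH 1 or METH 2, CHRM1 was not past the threshold (adjusted p up to 0.12).

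Both peptide receptors among the 50 genes, which couple to Gi, were down-regulated. SSTR3, a somatostatin receptor, had 0.43, 0.61 and 0.66 CPM in PBS libraries and 0.13, 0.099 and 0.084 CPM in METH libraries. All METH libraries were far below all PBS libraries, but with only 9 to 11 reads in each METH library. Its log2 fold change was -1.70 ± 0.34 (SE, limma adjusted p = 0.012) on the log2(CPM + 0.1) scale, which understates changes of low genes, and -2.44 by edgeR on the reads. OPRD1, the delta opioid receptor, had 3.78, 3.42 and 4.98 CPM in PBS libraries and 2.23, 2.12 and 2.15 CPM in METH libraries. The METH libraries had an SD of 0.055 CPM and lay below each PBS library. It had a log2 fold change of -0.86 ± 0.26 (SE, limma adjusted p = 0.036), and without METH 2 its adjusted p was 0.12.

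NPY, the transmitter peptide of sympathetic neurons, went the other way. It had 529, 857 and 766 CPM in PBS libraries and 1307, 1345 and 919 CPM in METH libraries. The groups did not overlap, with METH 3 just above PBS 11. Its log2 fold change was 0.74 ± 0.30 (SE, limma adjusted p = 0.070), and the call was lost without PBS 10, PBS 12, METH 1 or METH 2 (adjusted p up to 0.20).

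Of the 11 genes named GPR, 6 (54.5%) were up-regulated and 3 (27.3%) were down-regulated, against 33.3% and 35.8% of the table. GPR37, a receptor-like protein of the endoplasmic reticulum and cell surface that is a substrate of parkin, had 3.53, 4.48 and 3.48 CPM in PBS libraries and 11.5, 9.69 and 10.4 CPM in METH libraries. The lowest METH library was far above the highest PBS library. This gave a log2 fold change of 1.44 ± 0.23 (SE, limma adjusted p = 0.0077, or 0.029 over 15724 tests), and its adjusted p was at most 0.038 when any 1 library was left out.

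GPR3, a receptor that activates Gs without an added ligand and so raises cAMP, had 2.63, 2.60 and 3.37 CPM in PBS libraries and 6.84, 6.33 and 3.58 CPM in METH libraries. METH 3 was only slightly above PBS 12. GPR3 was up-regulated with a log2 fold change of 0.89 ± 0.31 (SE, limma adjusted p = 0.048). GPR22, an orphan receptor, had 5.53, 4.54 and 2.08 CPM in PBS libraries and 6.65, 8.77 and 6.37 CPM in METH libraries, which did not overlap. It was up-regulated by 0.92 ± 0.36 on the log2 scale (SE, limma adjusted p = 0.066). Without METH 1 or METH 2 neither gene was past the threshold, and without PBS 12 neither was GPR22 (adjusted p up to 0.15 for GPR3 and 0.18 for GPR22).

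GPR137C, GPR35 and GPR153 were up-regulated by 0.80, 0.91 and 0.56 on the log2 scale (limma adjusted p = 0.054, 0.079 and 0.091), with GPR35 at most 0.61 CPM in any library and 12.9% of its exonic bases shared with CAPN10. All 3 calls were lost without METH 1 or METH 2, with adjusted p up to 0.16, 0.21 and 0.23. GPR35 was also not past the threshold by DESeq2 (adjusted p = 0.11), nor GPR153 by limma without a trend (adjusted p = 0.12) or edgeR (adjusted p = 0.1001). GPR108 and GPR162 had log2 fold changes of 0.70 and 0.51 and did not pass the threshold (limma adjusted p = 0.13 and 0.15).

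In the other direction, GPR146 had 3.06, 4.67 and 6.05 CPM in PBS libraries and 1.88, 3.05 and 2.34 CPM in METH libraries, and METH 2 nearly reached PBS 10. Its log2 fold change was -0.87 ± 0.32 (SE, limma adjusted p = 0.059), and 49.4% of its exonic bases lie opposite the antisense gene AC073957.2. GPR27, an orphan receptor of neurons and other secretory cells, had 5.49, 8.24 and 7.75 CPM in PBS libraries and 4.46, 4.17 and 4.60 CPM in METH libraries. Its groups did not overlap, with a log2 fold change of -0.67 ± 0.25 (SE, limma adjusted p = 0.058). Both calls were lost without METH 1 or without PBS 12, and that of GPR27 also without METH 2, with adjusted p up to 0.17 for both genes.

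The adhesion receptors, which join a long extracellular part to a receptor of the G protein-coupled kind, divided as well. ADGRG1 (GPR56), known for its role in cortical development, had 0.84, 3.77 and 0.93 CPM in PBS libraries and 6.70, 7.61 and 3.34 CPM in METH libraries. METH 3 was below PBS 11, while METH 1 and METH 2 were above all PBS libraries. The log2 fold change was 1.86 ± 0.55 (SE, limma adjusted p = 0.034), and without PBS 12 or METH 2 it was not past the threshold (adjusted p up to 0.11). ADGRG2 had 2.44, 2.00 and 1.86 CPM in PBS libraries and 0.70, 0.78 and 1.27 CPM in METH libraries. It was down-regulated with no overlap, by 1.14 ± 0.32 on the log2 scale (SE, limma adjusted p = 0.029, and 0.101 without METH 2). ADGRB1, a brain receptor that binds phosphatidylserine on dying cells, was down-regulated by 0.58 ± 0.27 on the log2 scale (SE, limma adjusted p = 0.091). METH 1 and METH 2 were above PBS 10 for ADGRB1, and the call held in only 1 of the 6 fits that left out a library (adjusted p up to 0.23), and not by limma without a trend (adjusted p = 0.11).

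Of the adenylyl cyclases, ADCY5, the main cyclase of striatal neurons, had 1.81, 3.48 and 3.10 CPM in PBS libraries and 3.40, 6.40 and 4.48 CPM in METH libraries. METH 1 was below PBS 11. It differed by a log2 fold change of 0.75 ± 0.34 (SE, limma adjusted p = 0.088), and the call held in only 1 of the 6 fits that left out a library (adjusted p up to 0.27). ADCY3 had 15.0, 12.7 and 17.4 CPM in PBS libraries and 7.86, 15.4 and 9.36 CPM in METH libraries, with METH 2 inside the PBS range, and its log2 fold change of -0.51 did not pass the threshold (limma adjusted p = 0.13). ADCY3 shares 24.6% of its exonic bases with CENPO on the opposite strand, which was down-regulated by 1.63 on the log2 scale, and the share of CENPO reads in the ADCY3 value was not tested.

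Of the 5 genes named PDE, 3 (60%) were up-regulated, against 33.3% of the table. PDE3A, which hydrolyses cAMP and is inhibited by cGMP, had 1.27, 1.14 and 1.16 CPM in PBS libraries and 2.38, 2.38 and 3.08 CPM in METH libraries. The groups were well separated, with a log2 fold change of 1.06 ± 0.27 (SE, limma adjusted p = 0.024, or 0.091 over 15724 tests). By edgeR over 15724 tests PDE3A was not past the threshold. PDE10A, the phosphodiesterase for cAMP and cGMP that is abundant in striatal neurons, had 3.79, 3.13 and 1.73 CPM in PBS libraries and 6.36, 4.87 and 6.04 CPM in METH libraries. It was up-regulated with no overlap, by 1.03 ± 0.32 on the log2 scale (SE, limma adjusted p = 0.039, and 0.11 without METH 1).

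PDE6D, which despite its name is a carrier of prenylated proteins and no enzyme, had 28.7, 38.6 and 39.0 CPM in PBS libraries and 61.7, 55.8 and 48.0 CPM in METH libraries. Each METH library was above each PBS library, with a log2 fold change of 0.64 ± 0.21 (SE, limma adjusted p = 0.043). The 2 cAMP-specific enzymes of the PDE4 family differed in sign. PDE4A had a log2 fold change of 0.62 and did not pass the threshold (limma adjusted p = 0.14). PDE4C had 1.48, 2.14 and 1.08 CPM in PBS libraries and 1.05, 0.57 and 0.50 CPM in METH libraries, and was down-regulated by 1.06 ± 0.38 on the log2 scale (SE, limma adjusted p = 0.053). METH 1 nearly reached PBS 12, and 70.7% of the exonic bases of PDE4C are shared with the gene AC008397.2 on the same strand, so its value is uncertain. Leaving out METH 2 ended the calls of PDE6D and PDE4C (adjusted p up to 0.14 and 0.15 over the left-out libraries), as did METH 1 for PDE6D and PBS 11 or METH 3 for PDE4C.

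Of the 6 anchoring proteins, 4 (66.7%) were up-regulated and none was down-regulated, against 33.3% and 35.8% of the table. AKAP5 (chr14:64465499-64474503, plus strand, GRCh38), which holds protein kinase A and calcineurin at neuronal membranes, had 2.14, 2.48 and 1.07 CPM in PBS libraries and 5.65, 6.81 and 7.55 CPM in METH libraries. The lowest METH library was well above the highest PBS library, and METH 3 was the highest of all. The log2 fold change was 1.83 ± 0.34 (SE, limma adjusted p = 0.010, or 0.039 over 15724 tests). AKAP13, which also activates RhoA, had 10.4, 5.17 and 8.20 CPM in PBS libraries and 13.7, 15.1 and 21.4 CPM in METH libraries. Its log2 fold change was 1.10 ± 0.30 (SE, limma adjusted p = 0.029), and here too METH 3 was the highest.

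AKAP6, which anchors protein kinase A at the nuclear envelope of muscle and nerve cells, had 3.53, 2.42 and 2.18 CPM in PBS libraries and 4.75, 5.05 and 5.34 CPM in METH libraries. It was up-regulated with no overlap, by 0.90 ± 0.27 on the log2 scale (SE, limma adjusted p = 0.035, and 0.11 without METH 2). The nuclear proteins AKAP8L and AKAP8 had log2 fold changes of 0.74 (limma adjusted p = 0.062, past the threshold) and 0.47 (limma adjusted p = 0.11, not past it), and METH 3 was below the highest PBS library in both. AKAP8L shares 22.4% of its exonic bases with AC006128.1 on the opposite strand, and its call was lost without PBS 10, PBS 12, METH 1 or METH 2 (adjusted p up to 0.17). AKAP2 had a log2 fold change of -0.55 and did not pass the threshold (limma adjusted p = 0.26), and 85.8% of its exonic bases belong also to PALM2-AKAP2, so its reads cannot be assigned with certainty.

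Of the CREB family, CREB5 (chr7:28299321-28825894, plus strand, GRCh38), a factor of the ATF2 type that binds cAMP response elements, had 5.93, 9.64 and 5.68 CPM in PBS libraries and 46.5, 36.7 and 14.3 CPM in METH libraries. METH 3 was well below the other METH libraries and still above each PBS library. The ratio of the means was 4.59 and the log2 fold change was 2.06 ± 0.42 (SE, limma adjusted p = 0.013, or 0.051 over 15724 tests). The 2 factors that are held in the endoplasmic reticulum membrane and released by cleavage did not follow it. CREB3 had 26.5, 65.6 and 53.7 CPM in PBS libraries and 85.1, 71.2 and 49.5 CPM in METH libraries, and its log2 fold change of 0.56 did not pass the threshold (limma adjusted p = 0.16). CREB3L4 had 11.5, 22.5 and 14.8 CPM in PBS libraries and 11.6, 9.35 and 9.90 CPM in METH libraries. METH 1 was slightly above PBS 10, and the log2 fold change was -0.60 ± 0.27 (SE, limma adjusted p = 0.087), a call that held in 1 of the 6 fits that left out a library (adjusted p up to 0.21) and not by limma without a trend (adjusted p = 0.104).

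Promoter sequences from RefSeq (GRCh38.p14, 250 bases before to 50 bases after a start site) were found for 40 of the 50 genes, in 75 windows. They were searched for the cAMP response element bound by CREB factors, as the full palindrome TGACGTCA and as its core TGACG on both strands, which each full element also holds. AKAP2, AKAP8L, ADGRB1, GPR27, GPR37, GPR137C, GPR162, RGS11 and RGS20 were among those with no window. The full element was in 3 of the 75 windows (4%), 1 each of GPR3, GNG7 and PDE4A, against 3.12% of the 4192 windows of the table and 1.85% of the 35116 windows of the reference. The core was in 23 windows (30.7%), against 30.2% and 24.6%. A match is a description of the letters and not a known binding site.

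Of the genes with a full element only GPR3 was up-regulated, and its element begins 36 bases before the start site. RGS2, which has the smallest limma adjusted p of the 50 genes, has the core on the other strand, beginning 181 bases before the start site. The 250 bases before the start sites of these 2 genes are shown on the plus strand for chr1:27392372-27392621 (GPR3) and chr1:192808789-192809038 (RGS2) of GRCh38.p14, with the matches in capitals.
GPR3: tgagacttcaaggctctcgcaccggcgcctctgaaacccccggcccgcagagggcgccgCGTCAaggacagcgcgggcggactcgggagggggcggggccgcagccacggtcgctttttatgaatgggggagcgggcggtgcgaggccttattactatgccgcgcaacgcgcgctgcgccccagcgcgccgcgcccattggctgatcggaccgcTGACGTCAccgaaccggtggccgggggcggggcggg
RGS2: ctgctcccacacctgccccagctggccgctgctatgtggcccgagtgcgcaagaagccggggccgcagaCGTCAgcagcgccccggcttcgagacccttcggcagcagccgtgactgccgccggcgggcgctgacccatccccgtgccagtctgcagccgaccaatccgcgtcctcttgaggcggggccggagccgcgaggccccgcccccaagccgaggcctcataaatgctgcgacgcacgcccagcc
The GPR3 window holds a second, separate core match in addition to the full element, and the RGS2 window holds a single match.

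Other genes of the same pathway were taken from 5 lists of 230 genes in all, of which 42 were in the table. Of these 42, 20 (47.6%) were up-regulated and 10 (23.8%) were down-regulated, against 33.3% and 35.8% of the table. The same table shares stand beside the counts of each list below. Like all genes of the table, the 42 were already selected for a difference between METH and PBS. Of 22 inhibitors of protein kinase A and partners of CREB, 5 were in the table and all 5 were up-regulated. They include SIK2, a kinase that keeps CREB coactivators out of the nucleus, with 6.67, 7.59 and 6.39 CPM in PBS libraries and 27.3, 21.6 and 18.4 CPM in METH libraries (log2 fold change 1.67, limma adjusted p = 0.0038). CREM, which yields cAMP-induced repressors, was up-regulated by 1.58 on the log2 scale (limma adjusted p = 0.0034). CREBRF was up-regulated by 0.97 (limma adjusted p = 0.081, lost without PBS 10, PBS 12, METH 1 or METH 3, with values up to 0.25). The remaining genes of the 5, CRTC2 and CREBL2, were up-regulated by 0.79 and 0.58 (limma adjusted p = 0.043 and 0.068). Both calls were lost without METH 1 or METH 2, and that of CREBL2 also without PBS 12 or METH 3 (adjusted p up to 0.14 and 0.15).

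Of 26 receptor kinases, arrestins, G protein chaperones and related regulators, 5 were in the table, 4 of them up-regulated. These include RASD1, a Ras-like activator of Gi signals (log2 fold change 1.81, limma adjusted p = 0.019), REM2, a small GTPase of calcium channels (1.05, limma adjusted p = 0.044), and GRK5, a receptor kinase (0.91, limma adjusted p = 0.017). Of 29 genes listed as further effectors, 5 were in the table and 3 were up-regulated. These were the ion channel HCN3 (log2 fold change 0.94, limma adjusted p = 0.027), the potassium channel subunit KCNJ9, which opens on beta and gamma subunits (0.88, limma adjusted p = 0.052), and the cAMP-binding POPDC3 (0.49, limma adjusted p = 0.073). Leaving out METH 2 ended the calls of REM2, HCN3, KCNJ9 and POPDC3, as did METH 1 for REM2, KCNJ9 and POPDC3 and PBS 12 or METH 3 for POPDC3. The adjusted p of these 4 genes rose up to 0.14, 0.101, 0.16 and 0.17.

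Of 119 other G protein-coupled receptors, 18 were in the table, 4 (22.2%) up-regulated and 8 (44.4%) down-regulated. P2RY6, a receptor for UDP, had 3.18, 1.43 and 3.35 CPM in PBS libraries and 0.43, 0.22 and 0.12 CPM in METH libraries, which is a log2 difference of -2.95 (limma adjusted p = 0.0063). CXCR4, the receptor of the chemokine CXCL12, had 63.0, 131 and 57.0 CPM in PBS libraries and 18.1, 29.5 and 17.5 CPM in METH libraries, which is a log2 difference of -1.88 (limma adjusted p = 0.0099). In the other direction, EDNRA, an endothelin receptor, differed by 1.68 on the log2 scale (limma adjusted p = 0.0083).

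Of 34 ligand genes, 9 were in the table, 4 (44.4%) up-regulated and 2 (22.2%) down-regulated. The down-regulated ligands were CXCL12, at -1.51 on the log2 scale (limma adjusted p = 0.0083), and APLN, the ligand of the apelin receptor, with -1.40 (limma adjusted p = 0.022). APLNR, the receptor of APLN, was down-regulated with 0.36, 0.36 and 0.37 CPM in PBS libraries and 0.012, 0.18 and 0.22 CPM in METH libraries (log2 fold change -1.11, limma adjusted p = 0.069), with 1 read in METH 1. It was named after its value was seen, and its call was lost without PBS 10, PBS 12, METH 1 or METH 2 (adjusted p up to 0.21). APLNR was also not past the threshold by edgeR (adjusted p = 0.12) or DESeq2 (adjusted p = 0.15). CXCL12 and its receptor CXCR4 were both down-regulated. CGA, the common alpha chain of glycoprotein hormones, showed the largest change of these lists, from 0.18, 0.43 and 0.26 CPM in PBS libraries to 7.21, 6.25 and 2.99 CPM in METH libraries (log2 fold change 3.80, limma adjusted p = 0.0017).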

How the data were processed

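RNA of 3 PBS and 3 METH samples of SH-SY5Y cells was sequenced by the authors on the HiSeq platform and compared with DESeq2. The aligner, counting method and genome build are not given in the sources used here. The table deposited by the authors holds CPM values for 4101 genes. Its columns are headed FPKM, but 100% of the values in each column were whole multiples of a single step (within 0.1 step), so they are reads scaled to the library total. The reads were recovered from these steps. The mean CPM, fold change, log2 fold change and p-value columns deposited by the authors hold their own comparison. These columns served only to describe how the table was selected: all 4101 genes have an unadjusted p-value under 0.1 and are marked significant, and the adjustment implies 15724 tests.

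METH was compared with PBS on log2(CPM + 0.1) by lmFit and trended eBayes of limma 3.58.1 in R 4.3.3, with no block. Adjustment was by Benjamini-Hochberg over the table, and the threshold was 0.1. Fold changes are on that scale. Exact permutation tests were 2-sided. edgeR 4.0.16 (quasi-likelihood test) and DESeq2 1.42.0 were run on the recovered read counts as alternatives, and the fits were tested on simulated data. Other alternatives were pseudocounts of 1 and 0.01, only genes whose mean reached 1 CPM in either group, no trend, a common median ratio for all libraries, 0.05 as threshold, adjustment over 15724 tests, and each library left out in turn. Full values are given, per role and direction, for up to 3 genes with the largest changes past the threshold and a mean of at least 1 CPM, and for those past it over 15724 tests. Other genes are given by fewer values. One member counted in the totals is not reported here by name or drawn in the figures. The members, lists and rules were chosen with earlier results of these data known. Positions, exons and their overlaps are from GENCODE release 29 (4093 of 4101 identifiers matched, and all 50 members), and promoters from RefSeq. Other steps used scipy 1.17.1, pandas 2.3.3, numpy 2.4.6 and matplotlib 3.10.9 in Python 3.11.15.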

Additional observations from a re-analysis of the deposited data

How the results depend on the processing

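All 6 libraries gave 28 up-regulated and 10 down-regulated genes. A pseudocount of 1 or 0.01, the filter on mean CPM, limma without a trend, scaling to the same median ratio (a shift of -0.03 in the median log2 fold change of the table), edgeR and DESeq2 gave 26 to 28 up-regulated and 8 to 11 down-regulated genes. A threshold of 0.05 left 16 up-regulated and 5 down-regulated genes (17% and 19.1% of the table). Over 15724 tests, 7 and 1 were left with limma and 6 and 1 with edgeR, the latter chosen after seeing the data. The gene lost with edgeR was PDE3A. Leaving out 1 library gave 9 to 35 up-regulated genes and 4 to 10 down-regulated genes (10% to 37.8% and 13.7% to 33.4% of the table). The fewest were without METH 2 (9 and 4), METH 1 (10 and 5) and PBS 12 (15 and 5). In each fit that left out 1 library, 1 group had only 2 libraries. Among single genes, RGS20 changed sign, with log2 fold changes from -0.74 without PBS 10 to 1.01 without PBS 11. Of 300 comparisons of a single gene with 1 library left out, 200 kept the side of the threshold, 86 lost the call and 13 gained it. In 1 more, RGS20 without PBS 11, the gene passed the threshold with the opposite sign. The 200 include comparisons past the threshold in neither fit, whose sign was not checked. RGS20 without METH 3, at 0.05, is such a comparison with a changed sign. The 12 genes not past the threshold are not shown to be unchanged. SSTR3 rests on 9 to 11 reads per METH library. No paired analysis was possible because the PBS columns carry the numbers 10 to 12 and cannot be tied to the labels' replicate numbers.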

Other observations

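The core of the cAMP response element was in at least 1 promoter window of 10 of the 25 up-regulated genes with a window, 2 of the 7 down-regulated genes and 8 of the 8 genes not past the threshold, against 39.7% of the genes of the table with a window. By windows this was 22.7%, 16.7% and 57.9%. The median GC content of the windows was 63.3%, 64.3% and 70.7% in these 3 sets and 64.7% in the table. This split was made after the values were seen and was not tested.

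The 2 anchoring proteins with the largest log2 fold changes by limma, AKAP5 and AKAP13, were highest in METH 3. Among the METH libraries AKAP6 and AKAP2 were also highest in METH 3, while AKAP8 and AKAP8L were lowest there. In METH 3, 34 of the 50 genes (68%) were the lowest of the METH-treatment group. This compares with 52.3% of the table and 66.6% of its genes with a positive log2 fold change.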
